A study of Mus musculus with 2 samples.

Results

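The cells described here are those of 1 pool of sorted mouse bone marrow cells that carried transcripts of the G2 and M phases of the cell cycle. A cell was a droplet barcode with at least 500 UMIs (unique molecular identifiers, each counting 1 captured transcript) and at most 20% of them from mitochondrially encoded genes, the reporter feature left out. Of 3402 such cells, 454 held at least 4 UMIs summed over 12 genes and are called the members. The 12 rule genes were Mki67, Top2a, Cdk1, Ccnb1, Ccnb2, Ccna2, Birc5, Cdc20, Tpx2, Nusap1, Ube2c and Cenpf, and a UMI of any of them is called a rule UMI. The members were compared with the 2092 cells that had 0 rule UMIs, called 0-UMI cells, with the rule genes left out of every comparison and of the totals behind it. The other 856 cells had 1 to 3 rule UMIs.

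The study sequenced single cells on the inDrops droplet platform, for which the rarest population was GFP+ cells of the Mds1-GFP/+ Flt3-Cre strain, sorted from lineage-depleted marrow as DAPI- and GFP+ alone. These were mixed with LT-HSCs (long-term haematopoietic stem cells) from wild-type mice, sorted as DAPI-Lin-cKit+Sca+CD48-CD150+ by the SLAM markers, and most cells of the pool came from that wild-type sort, per the series design. Lineage depletion used B220, Gr1, Ter119, CD4 and CD8, and the reporter cassette, an internal ribosome entry site with GFP, lies between loxP sites. The labels give no age, sex or number of mice, and they call the 2 libraries aliquots of 1 cell pool. There is thus no biological replicate: the unit is the pool (n = 1), no test between cell groups was possible, and values are given for aliquot 1 and aliquot 2 as technical repeats or with both summed, which holds wherever 1 ratio stands alone. All intervals are exact 95% intervals and cover counting error only, because cells are not replicates and a single cell can hold many UMIs of the same gene.

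A dividing cell copies its DNA in S phase, passes a gap called G2, and separates its chromosomes in M phase. Cyclin B with the kinase Cdk1 starts M phase, the Aurora and Polo-like kinases build the spindle and its attachment points on the chromosomes, and the anaphase-promoting complex with Cdc20 ends it by marking cyclin B for destruction. The genes for these proteins are transcribed late in the cycle and silenced in resting cells by the DREAM complex, which binds a promoter element named CHR, while most LT-HSCs of adult marrow rest outside the cycle.

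The libraries differed in depth and shared barcodes. Kept cells held 1640734 UMIs in aliquot 1 and 4027333 in aliquot 2, with medians of 946.5 and 2071.5 UMIs per cell. Between the aliquots, 55 kept barcodes were shared, 6 of them members in both, 9 in 1 aliquot and 40 in neither. Of the 9 aliquot 1 members among them, 8 also held at least 2 rule UMIs in aliquot 2, and the median correlation of same-barcode profiles was 0.084 over 156 genes, against -0.003 for other pairs of these barcodes. The member cells with such barcodes numbered 21, and the main results without all shared barcodes stand with the results below. Scrublet, which marks likely doublets, marked 9 of 454 members, 1.98% (0.910 to 3.73%), against 16 of the other 2948 cells, 0.543% (0.310 to 0.880%). Barcodes under 200 UMIs, taken here as a measure of free RNA, carried 0.0846 and 0.110 rule UMIs each in aliquots 1 and 2. Their mean depths were 150.8 and 83.55 UMIs. In CPM, the scaled counts defined below, the rule genes summed to 561 (327 to 898) in these barcodes of aliquot 1. The kept cells of aliquot 1 stood at 1196 CPM. In aliquot 2 these barcodes stood at 1315 CPM (1218 to 1416), against 1169 CPM in kept cells. Relative to all UMIs, rule transcripts were thus no rarer in these barcodes than in kept cells of aliquot 2.

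Members made up 13.3% of the kept cells (12.2 to 14.5%). Aliquot 1 held 175 of 1574 cells, 11.1% (9.61 to 12.8%), and aliquot 2 held 279 of 1828, 15.3% (13.6 to 17.0%). The deeper library thus held the larger share. After each cell was thinned to 500 UMIs, 161 cells of aliquot 1, 10.2% (8.78 to 11.8%), and 184 cells of aliquot 2, 10.1% (8.72 to 11.5%), had 2 or more rule UMIs, shares within each other's intervals. For 1 or more rule UMIs at that depth the shares were 19.7% (17.8 to 21.7%) in aliquot 1 and 24.6% (22.7 to 26.7%) in aliquot 2, and these intervals do not overlap. Of the members, 397 (87.4%) still had at least 1 rule UMI at that depth.

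**Figure D1:**
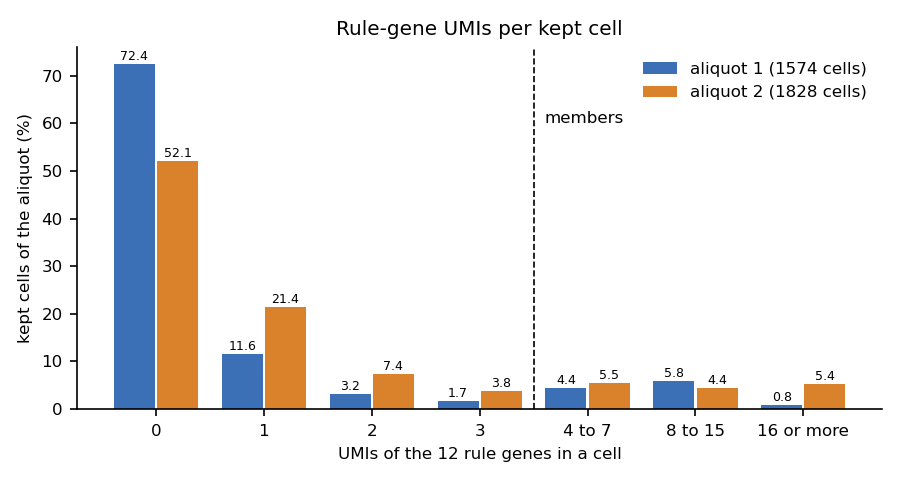
Share of the kept cells of each aliquot (bars, %) by the number of UMIs of the 12 rule genes in the cell; cells right of the dashed line are the members. Most cells had 0 rule UMIs in both aliquots, and the deeper aliquot 2 had more cells with 1 to 3 and with 16 or more.

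The members were deeper than the 0-UMI cells. They had a median of 2389 UMIs outside the rule genes and 1276 detected genes, against 1075 UMIs and 718 genes in 0-UMI cells. In aliquot 1 the medians were 1571 UMIs in members and 873.5 in 0-UMI cells, and in aliquot 2 they were 3317 and 1863. A rule on summed UMIs favours deep cells, so the same was asked of cells chosen after thinning to 500 UMIs, which removes that preference. Cells with 2 or more rule UMIs after thinning had a median original depth of 1486 UMIs (quartiles 1128 and 1819) in aliquot 1, against 896.5 (741 and 1117) in cells left with 0. In aliquot 2 the medians were 2820 (1772 and 3641) and 2008 (1520 and 2520). Cells with rule UMIs were therefore the deeper ones in both aliquots also without the rule's preference, and the part of doublets in this was not tested. The median share of mitochondrially encoded UMIs was 4.32% in members and 5.23% in 0-UMI cells.

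Because of this gap each member was paired, within its aliquot, with the 0-UMI cell nearest in depth and within 10%. Pairs were found for 337 members, 140 in aliquot 1 and 197 in aliquot 2, with medians of 1900 UMIs in members and 1827 in 0-UMI cells. The other 117 members had no free 0-UMI cell within that range and a median of 4117 UMIs. The 337 members summed to 736241 UMIs and their partners to 708322. Levels in the pairs are CPM, counts scaled to a total of 1000000 per set, with no correction for gene length, so levels are compared within a gene, and every ratio is members over 0-UMI cells.

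The rule genes describe the members and are no finding, since they chose them. Their levels are CPM of all 454 members, with the rule genes in the total. A member held a median of 9 rule UMIs, from 4 to 64, with medians of 8 in aliquot 1 and 10 in aliquot 2. These came from a median of 5 rule genes. Of the members, 208 had 6 or more rule genes, 14 had a single one and 2 had all 12. Members held 81.5% of the rule UMIs of all kept cells.

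Top2a, the topoisomerase that untangles replicated DNA, had the most UMIs, 1045 in 343 members (75.6%), and stood at 1183 CPM (1060 to 1316) in aliquot 1 and 768 (712 to 826) in aliquot 2. Mki67, whose protein coats mitotic chromosomes, had 786 UMIs in 320 members and stood at 933 and 564 CPM. Birc5, a subunit of the chromosomal passenger complex, was at 514 and 444 CPM. The rule sets a number of UMIs and not a share, and a fixed number is a larger share of a shallower cell, so the levels of the rule genes in the 2 aliquots are a description only.

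The kinase Cdk1 was at 528 and 324 CPM in members of aliquots 1 and 2, and its partners Ccna2, Ccnb2 and Ccnb1, which encode cyclins A2, B2 and B1, were detected unequally. Ccna2 was at 472 and 273 CPM, Ccnb2 at 412 and 393 CPM and Ccnb1 at 134 and 138 CPM. Ccnb1 was seen in only 95 members (20.9%), against 219 for Ccna2 and 186 for Ccnb2. Cdc20, the activator of the anaphase-promoting complex, was seen in 103 members at 102 and 112 CPM, and Ube2c, the ubiquitin-conjugating enzyme of that complex, in 192 at 429 and 353 CPM. Tpx2, an activator of Aurora A on the spindle, was at 377 and 293 CPM, and Nusap1, which bundles spindle microtubules, at 299 and 165 CPM. Cenpf, a kinetochore protein, was at 250 and 327 CPM and was the rule gene least concentrated in members: they held 48.7% of its UMIs, against 95.5% of those of Birc5.

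**Figure D2:**
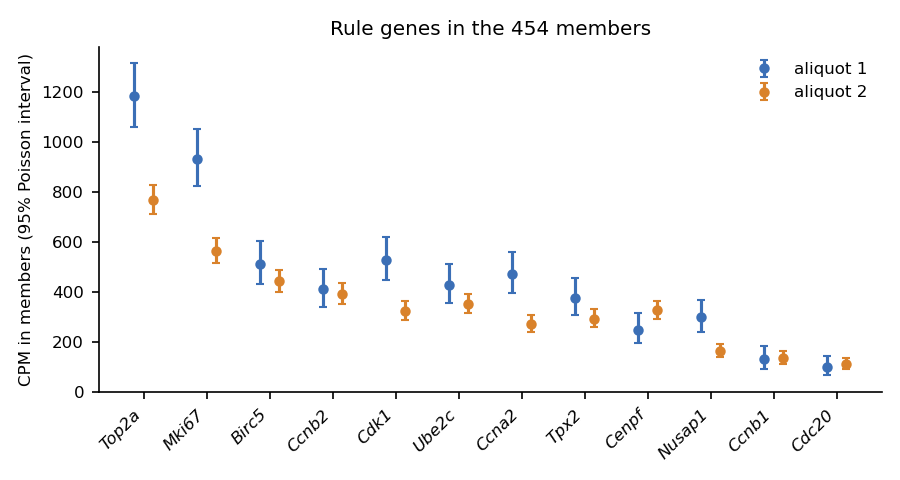
Level of the 12 rule genes in the members (CPM with exact 95% Poisson interval) in aliquot 1 and aliquot 2. Top2a and Mki67, the first from the left, have the most UMIs, and Ccnb1 and Cdc20, the last, have few UMIs.

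Just below the threshold lay 96 cells with 3 rule UMIs, and just inside it 53 members with 4. After thinning to 1000 UMIs, 104 other G2 and M phase genes summed to 20510 CPM in the 47 members with 4 rule UMIs that were deep enough and to 15190 CPM in the 85 such cells with 3. The cut therefore runs through a graded range.

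On GRCm38 these are protein-coding genes. Top2a lies on chr11:98992943-99024189, Mki67 on chr7:135689784-135716361, Cdk1 on chr10:69335146-69352938, Ccnb1 on chr13:100778650-100786570, Ccnb2 on chr9:70407692-70421547 and Cdc20 on chr4:118432901-118437352, all on the minus strand, and Ube2c on chr2:164769898-164778822 on the plus strand.

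The promoters of several rule genes hold the letters of the late cell cycle element, and the stretches below are shown so that its letters can be seen beside the promoter of an S phase gene. They come from RefSeq on GRCm38.p6 and run 5' to 3' along the gene's strand, from 120 bases before to 20 bases after the annotated start. Capitals mark TTTGAA, the core letters of the CHR element, and CCAAT, the box bound by NF-Y, or the same letters on the other strand, TTCAAA and ATTGG. No TTTGAA overlapped a CCAAT in these windows.
Cdc20, chr4:118437324-118437463, minus strand: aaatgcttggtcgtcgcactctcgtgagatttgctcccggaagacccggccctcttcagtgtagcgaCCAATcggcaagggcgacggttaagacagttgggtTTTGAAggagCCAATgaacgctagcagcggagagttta
Ccnb2, chr9:70421535-70421674, minus strand: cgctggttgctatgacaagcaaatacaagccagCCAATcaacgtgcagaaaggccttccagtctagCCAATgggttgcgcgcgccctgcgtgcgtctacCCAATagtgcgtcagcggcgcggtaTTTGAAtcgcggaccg
Ube2c, chr2:164769809-164769948, plus strand: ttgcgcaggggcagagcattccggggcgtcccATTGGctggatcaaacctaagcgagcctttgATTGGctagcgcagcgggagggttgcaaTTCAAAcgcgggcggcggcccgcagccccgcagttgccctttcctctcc
Cdk1, chr10:69352893-69353032, minus strand: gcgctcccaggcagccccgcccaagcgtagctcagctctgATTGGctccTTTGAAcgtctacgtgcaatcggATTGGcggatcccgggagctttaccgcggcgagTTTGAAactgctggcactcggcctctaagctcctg
Top2a, chr11:99024170-99024309, minus strand: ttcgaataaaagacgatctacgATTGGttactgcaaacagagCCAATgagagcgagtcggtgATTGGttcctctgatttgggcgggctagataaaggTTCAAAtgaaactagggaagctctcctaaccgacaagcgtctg
Plk1, chr7:122159315-122159454, plus strand: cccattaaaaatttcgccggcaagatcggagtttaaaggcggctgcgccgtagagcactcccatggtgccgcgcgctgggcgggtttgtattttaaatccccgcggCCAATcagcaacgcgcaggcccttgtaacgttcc
Ccnb1, chr13:100786467-100786606, minus strand: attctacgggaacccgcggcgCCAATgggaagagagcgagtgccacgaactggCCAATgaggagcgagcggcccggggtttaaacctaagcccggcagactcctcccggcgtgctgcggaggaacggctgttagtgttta
Mcm6, chr1:128359686-128359825, minus strand: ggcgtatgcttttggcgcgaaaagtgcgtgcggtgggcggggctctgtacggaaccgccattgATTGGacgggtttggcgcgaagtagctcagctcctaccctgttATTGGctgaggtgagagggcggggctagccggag
In Cdc20 the TTTGAA began 18 bases before the start, and in Cdk1 there were matches 71 and 15 bases before it. Ube2c and Top2a carried it on the other strand, 29 and 23 bases before the start. Ccnb2 had a match 4 bases past the start, and Plk1, the Polo-like kinase gene, had one 30 bases past it, beyond the printed stretch. Further matches lay upstream of the printed stretches, 167 bases before the start in Ccnb2 and 179 in Top2a. Ccnb1 and Mcm6, which encodes a subunit of the replicative helicase, held CCAAT and no TTTGAA in the window searched, 250 bases before to 50 after the start.

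Over all 32851 RefSeq windows of this length, 17.9% held TTTGAA, 37.4% CCAAT and 6.95% both, on either strand. Windows were found for 10 of the 12 rule genes, with Ccna2 and Tpx2 the others, and 7 of them held both motifs. Of 96 windows of 83 genes on the 4 G2 and M phase lists described next, 55 held TTTGAA (57.3%), 67 CCAAT (69.8%) and 43 both (44.8%). Of 63 windows of S phase genes, 9 held TTTGAA (14.3%) and 31 CCAAT (49.2%), and of 23 windows of LT-HSC genes, 3 (13.0%) and 9 (39.1%). A match gives only the letters in the window and says nothing of binding.

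Genes of G2 and M phase outside the rule were higher in the members almost without exception. Of 104 such genes on 4 lists, 101 were measured, meaning that the smaller set held, or was expected to hold, at least 10 UMIs. Of these, 97 were at least 1.5-fold higher and none 1.5-fold lower, and the median log2 ratio was 3.11. Over all 9144 measured genes, 15.2% were at least 1.5-fold higher and 18.1% at least 1.5-fold lower, with a median log2 ratio of -0.06. In 6605 genes compared between the aliquots, 1245 were at least 1.5-fold higher in aliquot 1. Of these, 850 had ratios above 1 in aliquot 2 and 395 below 1. A further 1362 were at least 1.5-fold lower in aliquot 1, of which 875 were below 1 in aliquot 2 and 487 above 1. Only 4777 genes were measured in aliquot 1 alone, so some of the 6605 were not measured there. In aliquot 1, 80 of 85 measured genes of the lists were at least 1.5-fold higher, beside a background of 18.1%, and in aliquot 2 it was 97 of 99, beside 18.1%. Together these genes summed to 34560 CPM (34140 to 34990) in members and 9818 CPM (9588 to 10050) in 0-UMI cells. In aliquot 1 the sums were 43160 CPM in members and 12420 in 0-UMI cells, and in aliquot 2 they were 31300 and 8830. Without the shared barcodes the median log2 ratio was 3.07.

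Of the 25 measured kinases and cyclin regulators, 23 were at least 1.5-fold higher, with a median log2 ratio of 3.11. Plk1, which drives entry into mitosis and spindle assembly, was at 193 and 129 CPM in members of aliquots 1 and 2, against 5.14 and 0 CPM in 0-UMI cells, with 108 UMIs in 79 members and 1 UMI in 0-UMI cells (ratio 103.9, 18.3 to 4142). Aurkb, the kinase of the chromosomal passenger complex, had 102 UMIs in members and 2 in 0-UMI cells (49.1, 13.2 to 411), and Aurka, the spindle pole kinase, had 51 and 1 (49.1, 8.42 to 1976). The width of these intervals comes from the 1 or 2 UMIs in 0-UMI cells, so the size of the ratio is known only as large. Bub1b, a spindle checkpoint kinase, rested on more counts and was at 405 and 274 CPM in members, against 41.1 and 3.89 CPM in 0-UMI cells (21.9, 11.7 to 46.4). Cks2, a small subunit of Cdk complexes, had the most UMIs of the list, 539 in members, and was at 845 and 689 CPM in members, against 108 and 97.3 CPM in 0-UMI cells (7.30, 5.69 to 9.49).

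Cdca3, a trigger of mitotic entry, had 122 UMIs in members and 3 in 0-UMI cells (39.1, 13.1 to 192). Foxm1, a transcription factor of G2 genes, had 52 and 1 (50.0, 8.59 to 2014). Cdc25c, a phosphatase that activates Cdk1, had 28 UMIs in members and 0 in 0-UMI cells, at least 8.98-fold higher when 3 counts over the group stand for the 0. Bub1, another checkpoint kinase, had 27 and 3 (8.66, 2.66 to 44.6). The genes of this group with the smallest ratios were Mybl2, a MYB family factor of the cycle, at 1.22 (0.516 to 2.98), and Pttg1, the inhibitor of separase, at 1.299 (0.702 to 2.44), both with intervals that include 1. Mybl2 had only 14 UMIs in members and 11 in 0-UMI cells, with 2.16 in aliquot 1 and 0.688 in aliquot 2, and stood at 5.13 (2.04 to 14.0) with all cells thinned to 1000 UMIs.

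Of the 36 spindle genes and kinesins, 35 were at least 1.5-fold higher, with a median log2 ratio of 3.73. Tuba1b, an alpha tubulin, had the most UMIs and was at 4600 and 3093 CPM in members, against 1460 and 958 CPM in 0-UMI cells (3.201, 2.95 to 3.47). Tubb5, a beta tubulin, was at 3335 and 2218 CPM in members, against 802 and 609 CPM in 0-UMI cells (3.81, 3.44 to 4.23), and Stmn1, which destabilises microtubules, had a ratio of 2.50 (2.30 to 2.71). Tuba1b had 776 UMIs in 0-UMI cells, Stmn1 795 and Tubb5 469, unlike the motor proteins of the spindle.

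Kif11, the motor that pushes the spindle poles apart, was at 390 and 348 CPM in members, against 15.4 and 15.6 CPM in 0-UMI cells (23.2, 12.7 to 47.0). Prc1, which bundles the midzone of the spindle, was at 361 and 180 CPM in members, against 10.3 and 9.73 CPM in 0-UMI cells (23.2, 11.03 to 58.7). Kif20a and Kif23, motors needed to split the cell, had ratios of 22.4 (8.45 to 83.8) and 5.42 (3.31 to 9.35). Hmmr, a spindle protein that also binds hyaluronan, had 83 UMIs in members and 3 in 0-UMI cells (26.6, 8.80 to 132), Tacc3, which stabilises spindle fibres, 60 and 6 (9.62, 4.17 to 27.3), and Cenpe, the motor that moves chromosomes to the spindle equator, 67 and 1 (64.5, 11.2 to 2584). Fam64a, a mitotic protein, and Kif2c, a microtubule-depolymerising kinesin, had 71 and 50 UMIs in members and 0 in 0-UMI cells, at least 22.8-fold and 16.03-fold higher. The exception was Numa1, a spindle pole protein that is also a nuclear matrix protein between divisions, at 247 and 227 CPM in members, against 319 and 273 CPM in 0-UMI cells (0.814, 0.660 to 1.00).

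The 10 markers outside the rule by which the label could be checked, Aurka, Plk1, Kif11, Kif20a, Kif23, Hmmr, Tacc3, Prc1, Cenpe and Bub1, were all higher in members in each aliquot. Their ratios ran from 5.42 upward with the aliquots summed, but rested on few UMIs in 0-UMI cells. Tacc3 was at 3.27 in aliquot 1 and 41.4 in aliquot 2. In aliquot 1 Aurka, Cenpe and Bub1 had 0 UMIs in 0-UMI cells and were at least 5.13-fold, 4.81-fold and 2.56-fold higher. Against cells with 1 to 3 rule UMIs Tacc3 was at 3.99 and Aurka at 5.36.

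All 18 measured kinetochore and passenger complex genes were at least 1.5-fold higher, with a median log2 ratio of 3.36. Cdca8, a passenger complex subunit, was at 544 and 328 CPM in members, against 25.7 and 9.73 CPM in 0-UMI cells (27.4, 14.7 to 57.8), and Incenp, its scaffold, had a ratio of 13.3 (7.01 to 28.3), or 24.99 in aliquot 1 and 10.3 in aliquot 2. Cenpa, the histone variant that marks centromeres, was at 331 and 279 CPM in members, against 25.7 and 19.5 CPM in 0-UMI cells (13.9, 8.22 to 25.2). Nuf2, a microtubule-binding kinetochore subunit, had 138 UMIs in members and 3 in 0-UMI cells (44.3, 14.8 to 217), and Ska1, of a complex that tracks microtubule ends, 40 and 0, at least 12.8-fold higher. Summed over the list's 20 genes, kinetochore transcripts reached 2230 CPM in members and 239 CPM in 0-UMI cells, so they were rare in 0-UMI cells.

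Of the 22 condensin and chromatin genes, 21 were at least 1.5-fold higher, and their median log2 ratio of 1.57 was the smallest of the 4 lists. Hmgb2, a DNA-bending protein of dividing cells on chr8:57511907-57515999 (plus strand), was at 5336 and 2943 CPM in members, against 591 and 370 CPM in 0-UMI cells (8.36, 7.43 to 9.45), and was seen in 316 of 337 members and 175 of 337 0-UMI cells. H2afz, the histone variant H2A.Z, was at 2115 and 1585 CPM in members, against 766 and 500 CPM in 0-UMI cells (3.02, 2.698 to 3.38). H2afx, the variant marked at DNA breaks, had a ratio of 9.92 (6.89 to 14.8). Among these chromatin genes the one of lowest ratio was Cbx5, a heterochromatin protein, at 1.41 (1.14 to 1.76).

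Ncapd2 and Smc4, condensin subunits, had ratios of 7.65 (5.42 to 11.1) and 4.91 (3.59 to 6.84), and Lmnb1, a lamin of the nuclear envelope, had 3.81 (3.08 to 4.73).

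**Figure D3:**
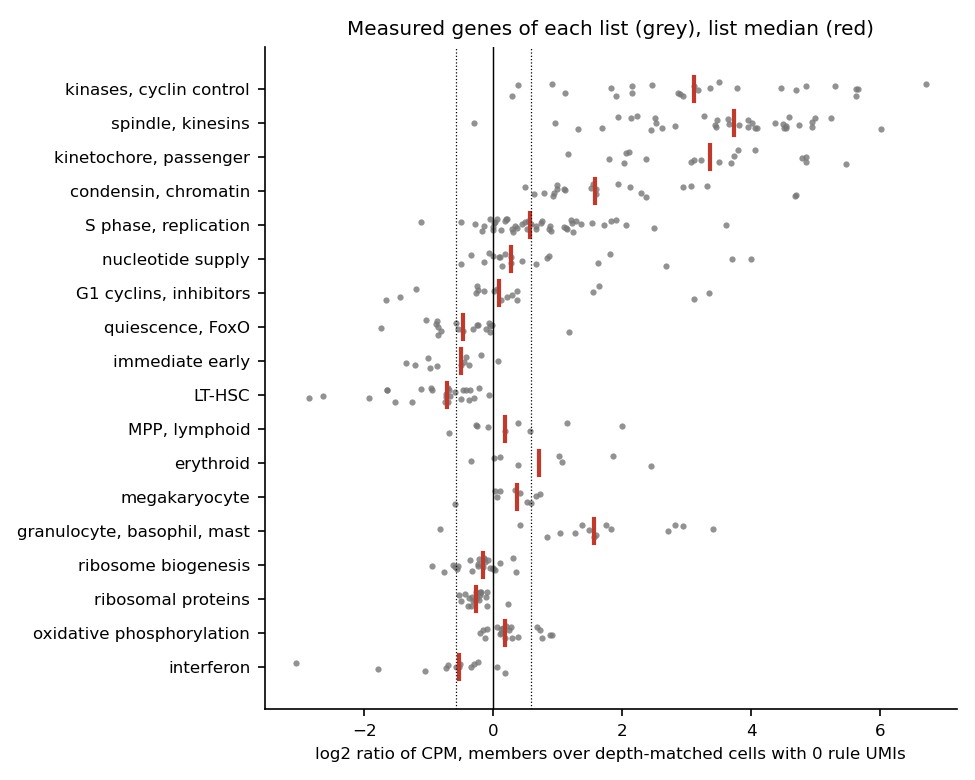
Log2 ratio of CPM, members over depth-matched 0-UMI cells, for the measured genes of each list (grey points, both aliquots summed) with the list's median (red bar); dotted lines mark 1.5-fold either way. The 4 G2 and M phase lists at the top lie to the right, with medians of 3.11, 3.73, 3.36 and 1.57, and all LT-HSC genes lie left of 0.

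Most of the 15 genes ranked highest were on the lists above. Among 4346 genes with at least 30 UMIs over both sets, seen in at least 10 cells of the set where they were higher and with 1 direction in both aliquots, that was true of 9 of the 15 highest. The other 6 were Aspm, Spdl1, Esco2, Shcbp1, Iqgap3 and C3. For scale, the 4 lists held 101 of all 9144 measured genes, and their number among the 4346 ranked genes is not given here. A gene with 0 UMIs in 0-UMI cells has only a lower bound, from 3 counts in place of the 0. It can thus stand below a gene with 1 or 2 UMIs there, and the count of 9 depends on this. Fam64a, with 71 UMIs in members and 0 in 0-UMI cells, was not among the 15. Neil3, Arhgap19 and Espl1, described at the end, also had 0 UMIs in 0-UMI cells and are outside the lists above. Aspm, which keeps spindle poles focused, had 87 UMIs in members and 2 in 0-UMI cells (41.9, 11.2 to 351). Spdl1, which brings dynein to kinetochores, had 45 and 1 (43.3, 7.38 to 1748), and Esco2, an acetyltransferase that locks cohesin during replication, had 41 and 1 (39.5, 6.69 to 1596). Shcbp1 and Iqgap3, linked to cell division, had 35 and 1 and 67 and 2 UMIs. C3, a complement protein, had 36 UMIs in 13 members and 1 in 0-UMI cells, but without the cells rich in granulocyte transcripts described below it was at least 2.25-fold higher, with 0 UMIs in 0-UMI cells.

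S phase genes were higher in the members too, and the size differed between depth-matched and thinned cells. Of 67 genes of replication and nucleotide supply, 66 were measured. Of these, 30 were at least 1.5-fold higher and 1 lower, beside 15.2% and 18.1% of all genes. The median log2 ratio was 0.50, with 0.17 in aliquot 1 alone and 0.48 without the shared barcodes. In aliquot 1, 21 of 57 measured genes were at least 1.5-fold higher and 6 lower, beside 18.1% and 20.3%. In aliquot 2 it was 32 higher and 1 lower of 64, beside 18.1% and 19.6%. The sums were 11180 and 9810 CPM in members of aliquots 1 and 2, against 8970 and 6695 CPM in depth-matched 0-UMI cells. When all cells were thinned to 1000 UMIs in place of pairing, 51 of 64 were higher, beside a background of 17.0%, with a median of 1.27. In that setting the 0-UMI cells summed to 5072 CPM of S phase genes. The 0-UMI cells deep enough to be paired thus carried more S phase transcripts, 7320 CPM, than all 0-UMI cells with 1000 UMIs.

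The S phase genes split into those that marked members and those that did not. Rrm2, the small subunit of ribonucleotide reductase, was at 356 and 294 CPM in members, against 41.1 and 17.5 CPM in 0-UMI cells (13.0, 7.92 to 22.6). Tk1, thymidine kinase, was at 544 and 378 CPM in members, against 66.8 and 66.2 CPM in 0-UMI cells (6.39, 4.69 to 8.88). E2f8, an E2F repressor, had a ratio of 12.2 (5.35 to 34.3). These 3 were several-fold higher in both aliquots. Against cells with 1 to 3 rule UMIs they were at 3.08, 2.22 and 3.40, and with all cells thinned Rrm2 was at 28.4 and Tk1 at 15.1.

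The licensing genes of the replicative helicase did not follow. Mcm6, on chr1:128331590-128359664 (minus strand), was at 712 and 680 CPM in members, against 889 and 603 CPM in 0-UMI cells (1.01, 0.890 to 1.15), and Mcm2 had a ratio of 0.821 (0.670 to 1.01). Pcna, the sliding clamp of the polymerase, was at 1.28 (1.02 to 1.62) and Slbp, which handles histone messages, at 1.69 (1.32 to 2.16). The 1 lower gene was Cdca7, a chromatin factor, at 0.462 (0.335 to 0.632). It was at 0.246 in aliquot 1, but at 0.690 with all cells thinned and 0.976 without depth matching, where it was no longer 1.5-fold lower. With all cells thinned, which changes both sets of cells, Mcm6 stood at 1.56, Mcm2 at 1.64, Pcna at 2.22 and Slbp at 2.72.

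With cells thinned to 1000 UMIs and grouped by rule UMIs, the G2 and M phase lists and the S phase lists ran differently. From 0 through 1 to 3, 4 to 7, 8 to 15 and 16 or more rule UMIs, the groups held 1172, 710, 154, 164 and 110 cells. The G2 and M lists summed to 8080, 10780, 26010, 38490 and 41180 CPM. The S phase lists summed to 5072, 7063, 13010, 10770 and 7745 CPM, highest in the members with 4 to 7 rule UMIs. In aliquot 1 the S phase sums were 6965, 11220, 14540, 9419 and 7385 CPM, the last from only 13 cells, and in aliquot 2 they were 4195, 5892, 12000, 12260 and 7794 CPM. In both aliquots S phase transcripts were lower in the members with 16 or more rule UMIs than in the other members.

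**Figure D4:**
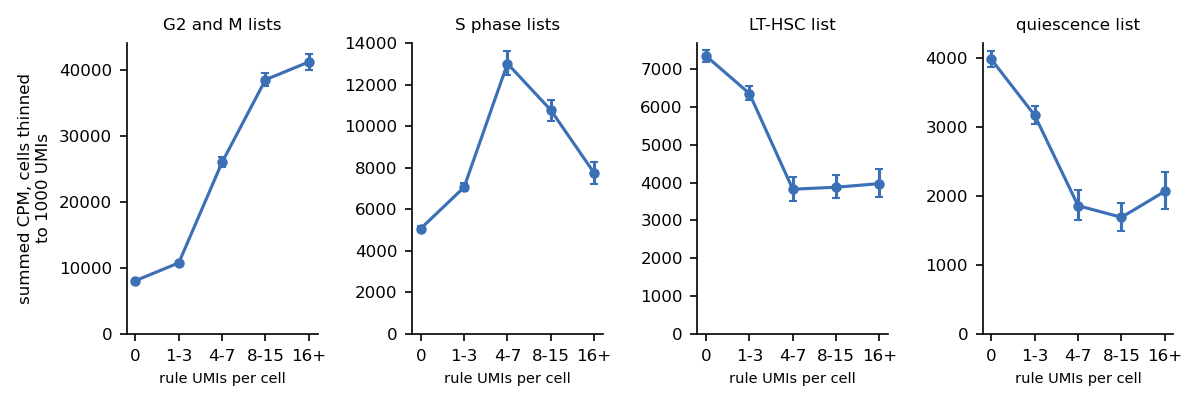
Summed level (CPM with exact 95% Poisson interval) of the genes on the G2 and M, S phase, LT-HSC and quiescence lists by the number of rule UMIs per cell, with every cell thinned to 1000 UMIs. The G2 and M sum climbs to 41180 CPM, the S phase sum peaks at 13010 CPM at 4 to 7 rule UMIs, and the LT-HSC sum lies between 3825 and 3973 CPM in the 3 classes of members.

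The members were not uniform. A split chosen after the data were seen took 6 genes of late G2 and M phase, Ccnb1, Ccnb2, Cdc20, Plk1, Aurka and Cenpe, in the 428 members with at least 1000 UMIs, thinned to that depth. Of these, 111 had 2 or more late UMIs, 96 had 1 and 221 had 0. The 3 of these genes that belong to the rule chose the members as well, and a member with 0 late UMIs had to meet the rule with its other genes, so no rule gene is compared here. The ratios in this paragraph and the next are members with 2 or more late UMIs over members with 0. S phase genes summed to 6279 CPM (5822 to 6763) in members with 2 or more, 9135 CPM in those with 1 and 14120 CPM (13630 to 14620) in those with 0, in the opposite order to the late genes. The members are therefore not all free of S phase transcripts, and the name G2 and M describes the rule genes. The LT-HSC list differed less, at 4288, 3594 and 3792 CPM in the same 3 groups.

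Members with 2 or more late UMIs were higher in H2afx (2.92, 2.08 to 4.13). Kpna2, a nuclear import factor, was at 2.79 (1.70 to 4.61), Cks2 at 2.36 (1.80 to 3.09) and Hmgb2 at 1.72 (1.54 to 1.93), with 1.43 in aliquot 1 and 2.04 in aliquot 2. Tuba1b, at 1.11 (0.980 to 1.25), had an interval that includes 1. On the other side stood Mcm6, at 0.311 (0.211 to 0.446), with 0.3495 in aliquot 1 and 0.293 in aliquot 2, and Pcna, at 0.267 (0.128 to 0.503). Uhrf1, which guides DNA methylation at replication forks, had 5 UMIs in members with 2 or more late UMIs and 63 in those with 0 (0.158, 0.0496 to 0.389), and Slbp was at 0.328 (0.181 to 0.561). Both aliquots gave these S phase genes the same direction.

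**Figure D5:**
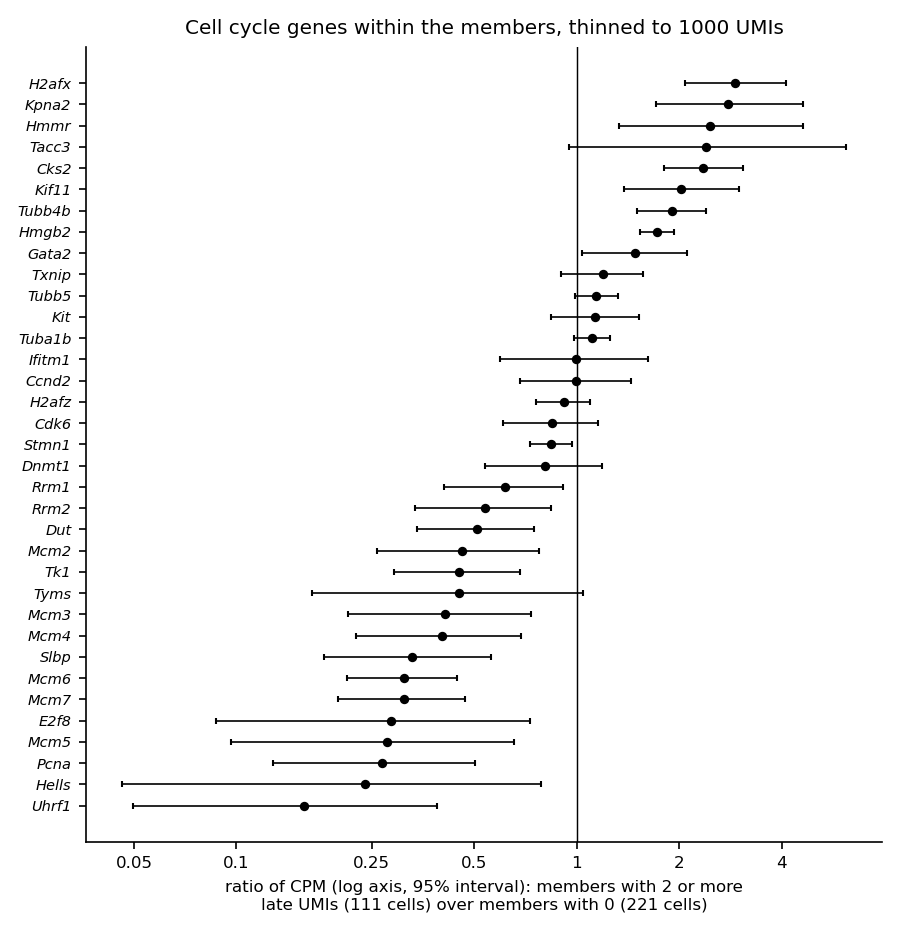
Ratio of CPM (log axis, exact 95% interval) between members with 2 or more UMIs of 6 late genes and members with 0, for cell cycle and stem cell genes with at least 20 UMIs over both sets, cells thinned to 1000 UMIs. Rule genes are left out. H2afx and Kpna2 lie to the right, at 2.92 and 2.79, and S phase genes such as Mcm6, Pcna and Uhrf1 lie to the left, at 0.311, 0.267 and 0.158.

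Among the genes that govern the decision to enter the cycle, cyclins D1 and D2 were lower in the members and cyclin D3 was not. Of 18 measured G1 cyclins and inhibitors, 4 were at least 1.5-fold higher and 3 lower. Over all measured genes the shares were 15.2% and 18.1%, so these counts lie near the background. The list's median log2 ratio was 0.09. Ccnd2, cyclin D2, on chr6:127125162-127152193 (minus strand), was at 366 and 390 CPM in members, against 853 and 891 CPM in 0-UMI cells (0.435, 0.376 to 0.501). Ccnd1, cyclin D1, chosen after its values were seen, had 23 UMIs in members and 70 in 0-UMI cells (0.316, 0.188 to 0.513). It was at 0.0663 in aliquot 1, from 2 UMIs in members and 29 in 0-UMI cells, at 0.493 in aliquot 2 and at 0.575 without depth matching. Ccnd3, cyclin D3, was at 1.09 (0.884 to 1.35). Their kinase partners did not share this: Cdk6 was at 1.22 (1.06 to 1.42) and Cdk4 at 1.01 (0.859 to 1.19).

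Of the inhibitors, Cdkn2c, p18, which binds Cdk4 and Cdk6, had 53 UMIs in members and 5 in 0-UMI cells (10.2, 4.11 to 32.7), or 23.1 in aliquot 1 and 6.98 in aliquot 2. Cdkn2d, p19, of the same family, was at 198 and 167 CPM in members, against 51.4 and 58.4 CPM in 0-UMI cells (3.10, 2.16 to 4.54). Cdkn1b, p27, an inhibitor tied to rest in many cell types, was at 0.907 (0.601 to 1.37). These 3 were chosen after their values were seen. Ccng2, cyclin G2, which is linked to cell cycle arrest, was nonetheless higher in members, at 222 and 172 CPM, against 72.0 and 60.3 CPM in 0-UMI cells (2.93, 2.08 to 4.20), and at 1.54 without depth matching.

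Quiescence and immediate early genes were mostly lower. Of 19 measured quiescence and FoxO-linked genes, 7 were at least 1.5-fold lower, beside the 18.1% of all genes, and 1 higher, with a median log2 ratio of -0.47. With every cell thinned to 1000 UMIs, 15 were lower, beside 18.2%, and the median was -1.13. Txnip, a thioredoxin inhibitor of resting stem cells, on chr3:96557957-96561883 (plus strand), was at 721 and 791 CPM in members, against 1429 and 1423 CPM in 0-UMI cells (0.542, 0.488 to 0.601). Mycn, a MYC family factor placed on this list, was at 0.548 (0.428 to 0.6997), and Tob1, an antiproliferative protein chosen after its values were seen, had 9 UMIs in members and 29 in 0-UMI cells (0.299, 0.124 to 0.648). Tob1 was at 0.769 in aliquot 1, from 4 and 5 UMIs, and 0.201 in aliquot 2. Without depth matching Txnip was at 0.322. The list summed to 1927 and 2029 CPM in members, against 3079 and 3143 CPM in 0-UMI cells.

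Of 11 measured immediate early genes, which stimulation and tissue handling induce quickly, 5 were at least 1.5-fold lower, beside 18.1%, and none higher, with a median log2 ratio of -0.51. Ier2 was at 158 and 199 CPM in members, against 437 and 434 CPM in 0-UMI cells (0.431, 0.3501 to 0.529). Egr1, a zinc finger factor that is also on the quiescence list, was at 0.487 (0.367 to 0.643), Zfp36, which destabilises messages, at 0.506 (0.399 to 0.638), and Jun, an AP-1 factor, at 0.703 (0.613 to 0.805). A list of 11 heat shock and dissociation genes summed to 6063 CPM in members and 5920 CPM in 0-UMI cells. The aliquots differed in direction, with 5939 CPM in members and 6503 CPM in 0-UMI cells of aliquot 1, and 6110 and 5699 CPM in aliquot 2. The part of cell handling in any of these levels was not tested.

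Stem cell transcripts were lower in the members. All 26 genes of the LT-HSC list were measured and had ratios below 1 with the aliquots summed, and 18 were at least 1.5-fold lower, beside the 18.1% of all genes, with a median log2 ratio of -0.72 (-0.49 in aliquot 1, and -0.72 without the shared barcodes). In aliquot 1 alone, 17 of the 19 measured were below 1 and 7 were 1.5-fold lower, beside a background of 20.3%. In aliquot 2, 17 of 24 were 1.5-fold lower, beside 19.6%, and with all cells thinned to 1000 UMIs 15 of 23, beside 18.2%. The list summed to 4140 and 3952 CPM in members, against 5860 and 6300 CPM in 0-UMI cells. Across the groups by rule UMIs it stood at 7343, 6352, 3825, 3878 and 3973 CPM, so it was lower in members with 4 to 7 rule UMIs and no lower still in those with more.

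Ifitm1, a membrane protein of interferon defence, on chr7:140967221-140969825 (plus strand), was at 208 and 242 CPM in members, against 504 and 734 CPM in 0-UMI cells (0.346, 0.289 to 0.413). Sult1a1, a sulfotransferase, on chr7:126672865-126676432 (minus strand), had 8 UMIs in members and 48 in 0-UMI cells (0.160, 0.0655 to 0.342). Ltb, lymphotoxin beta, had 23 and 69 (0.321, 0.191 to 0.521). Among transcription regulators of self-renewal, Mllt3 was at 0.419 (0.291 to 0.595), Hlf at 0.627 (0.539 to 0.728) and Mecom, the locus that carries the reporter, at 0.620 (0.424 to 0.900). Hlf was at 455 and 375 CPM in members, against 617 and 638 CPM in 0-UMI cells, while Mllt3 was at 0.676 in aliquot 1, short of 1.5-fold, and 0.333 in aliquot 2. Without depth matching the ratios were further below 1, at 0.223 for Ifitm1, 0.239 for Mllt3, 0.347 for Mecom and 0.391 for Hlf.

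Of the surface receptors, Procr, which marks LT-HSCs in mouse marrow, was at 0.5999 (0.417 to 0.855). In aliquot 1 it had 14 UMIs in members and 14 in 0-UMI cells, a ratio of 0.961, in aliquot 2 it was at 0.529, and without depth matching at 0.297. Kit, a receptor tyrosine kinase and the cKit of the wild-type sort, was at 578 and 571 CPM in members, against 812 and 666 CPM in 0-UMI cells (0.812, 0.712 to 0.926). Slamf1, which encodes the CD150 of that sort, had 8 UMIs in members and 15 in 0-UMI cells, with an interval that includes 1. The LT-HSC markers Fgd5, with 6 and 18 UMIs, Hoxb5, with 3 and 11, and Neo1, with 2 and 14, rested on few counts. Gata2, a transcription factor of stem and progenitor cells, was nearest to 1 at 0.959 (0.814 to 1.13).

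The genes of multipotent progenitors were mixed. Of 9 measured, 2 were at least 1.5-fold higher and 1 lower, beside 15.2% and 18.1% of all genes. Cd34 was at 321 and 259 CPM in members, against 293 and 290 CPM in 0-UMI cells (0.948, 0.777 to 1.16), and Flt3, the receptor of early progenitors, at 1.13 (0.664 to 1.95). Plac8, a myeloid and lymphoid progenitor gene, was at 1.48 (1.22 to 1.79), or 2.69 without depth matching. It was at 1.20 in aliquot 1 and at 1.17 without the cells rich in granulocyte transcripts described below. Cd48, which the wild-type sort selected against, chosen after its values were seen, had 16 UMIs in members and 7 in 0-UMI cells (2.20, 0.856 to 6.32).

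A few members carried granulocyte transcripts in large amounts. Of the members, 24 of 454 held 5 or more UMIs of 18 granulocyte, basophil and mast cell genes, 5.29% (3.42 to 7.76%), against 15 of 2092 0-UMI cells, 0.717% (0.402 to 1.18%), although Gr1, a granulocyte antigen, was among the depleted lineage markers. A fixed count favours deep cells and the members were deeper, so the shares in depth-matched cells are given below. These 24 cells held 97.0% of the list's UMIs in members. Elane, the neutrophil elastase gene of granulocyte precursors, had 327 UMIs in 13 of the 454 members, up to 92 in 1 cell, and 2 UMIs in the 2092 0-UMI cells. Mpo, myeloperoxidase, had 155 UMIs in 16 members and 13 in 8 0-UMI cells. Cells with 1 to 3 rule UMIs held these messages too: in members depth-matched to them, Elane was at 0.0940 and Mpo at 0.309 times their level. The later granule genes were not so one-sided: Camp, an antimicrobial peptide, had 874 UMIs in 14 members and 168 in 11 0-UMI cells, 157 of them in a single cell.

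In the depth-matched cells, 14 of 337 members were of this kind, 4.15% (2.29 to 6.87%), and 7 of 337 0-UMI cells, 2.08% (0.839 to 4.23%). These intervals overlap, so depth-matched cells do not settle a difference in share. Of 15 measured genes, 13 were at least 1.5-fold higher, beside 15.2% of all genes, with a median log2 ratio of 1.56. S100a8 and S100a9, calcium-binding proteins of neutrophils, were at 1122 and 1650 CPM in members of aliquot 1, against 5.14 and 15.4 CPM in 0-UMI cells. In aliquot 2 they were at 1341 and 1763 CPM in members, against 526 and 806 CPM in 0-UMI cells. A single 0-UMI cell held 267 UMIs of S100a8 and 408 of S100a9. Without that cell the ratios, with the aliquots summed, were 225.6 for S100a8 and 135.5 for S100a9. The 14 members held 97.2% of the list's UMIs and the 7 0-UMI cells 89.7%. Without such cells in either set, an alternative chosen after seeing the data, the list's median log2 ratio was 0.16 and S100a9 stood at 0.964, while the medians were 3.01 for the G2 and M lists and -0.70 for the LT-HSC list.

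Erythroid and megakaryocyte genes gave no direction that both aliquots shared, with few of them measured in aliquot 1. Of 8 measured erythroid genes, 4 were at least 1.5-fold higher, beside 15.2% of all genes, with a median log2 ratio of 0.70. In aliquot 1 alone the median was -0.17, but from only 3 measured genes, none of them past 1.5-fold either way. Gata1, the master factor of both lineages, was at 64.2 and 69.3 CPM in members, against 77.1 and 42.8 CPM in 0-UMI cells (1.3, 0.833 to 2.05). Blvrb, a reductase of erythroid cells, was at 59.3 and 80.6 CPM in members, against 66.8 and 25.3 CPM in 0-UMI cells. Of 10 measured megakaryocyte genes, 3 were higher and 1 lower, beside 15.2% and 18.1% of all genes, with a median of 0.37. In aliquot 1 alone the median was -0.18, from 7 measured genes. Pf4, platelet factor 4, was at 44.5 and 240 CPM in members, against 154 and 103 CPM in 0-UMI cells, and Itga2b, its lineage's integrin, at 1.33 (1.04 to 1.70). Without depth matching Gata1 was at 2.79, Pf4 at 3.35 and Itga2b at 2.48.

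Markers of mature lymphoid, stromal and erythroid cells were mixed, some at 0 and others present. Of 14 B, T and natural killer cell genes, 6 had 0 UMIs over all 454 members, namely Cd3e and Cd3g, of T cells, Ms4a1 and Vpreb3, of B cells, and Klrd1 and Ncr1, of natural killer cells. In 0-UMI cells 3 of the 14 had 0 UMIs, namely Cd3g, Vpreb3 and Klrd1. Cd3e, Ms4a1 and Ncr1 had only 3, 3 and 2 UMIs there. Cd79b, of the B cell receptor, had 18 UMIs in 16 members and 72 in 61 0-UMI cells, and Cd3d, of the T cell receptor complex, had 10 in 9 members and 23 in 23 0-UMI cells. In the depth-matched cells the B, T and natural killer list summed to 134.5 CPM in members and 105.9 in 0-UMI cells. Only 2 of its genes were measured there, and they went opposite ways. Nkg7, a granule protein that progenitors also express, was higher at a log2 ratio of 1.06, and Cd79b was lower at -0.93. The stroma and endothelium list summed to 111.4 CPM in depth-matched members and 196.2 CPM in 0-UMI cells. Cxcl12, of stroma, and C1qb, of macrophages, had 0 UMIs in members, against 4 and 1 in 0-UMI cells. Hba-a1, an alpha globin, had 0 in both, while Hbb-bt, a beta globin, had 33 in 20 members and 143 in 86 0-UMI cells. Lyz2, a lysozyme of myeloid cells, had 1065 in 185 members and 1181 in 615 0-UMI cells. The UMI counts of single genes in this paragraph are over all 454 members and all 2092 0-UMI cells. These sets held 1202364 and 2806380 UMIs outside the rule genes, so the counts are not levels and give no direction by themselves.

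The reporter was found in a like share of members and 0-UMI cells. A reporter UMI was found in 9 of 454 members, 1.98% (0.910 to 3.73%), and in 40 of 2092 0-UMI cells, 1.91% (1.37 to 2.60%). In depth-matched cells it was 5 of 337 members and 6 of 337 0-UMI cells. Seen from the other side, 9 of the 71 reporter cells were members, 12.7% (5.96 to 22.7%), against 445 of the 3331 other cells, 13.4% (12.2 to 14.6%). With 9 such members a difference inside these intervals was not detectable, and a cell in which no reporter UMI was detected can nonetheless stem from the GFP sort.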

How the data were processed

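Single-cell libraries were made on the inDrops platform, per the labels' protocols, and the deposited files hold raw UMI counts for 28206 features per barcode with no normalization by the authors, as the whole numbers show. RSEM 1.3.0, SAMtools 1.3.1, Bowtie 1.1.1 and the build GRCm38 are listed without roles, per the submitters' processing notes, and reporter transcripts were counted against the cassette sequence, per the labels. Nothing in the sources used here says how reads shared by near-identical copies were divided, and ribosomal protein and tubulin genes are uncertain for that reason.

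Cells were barcodes that reached 500 UMIs with a mitochondrially encoded share of no more than 20%, 1574 of 2147 in aliquot 1 and 1828 of 8662 in aliquot 2. Members and 0-UMI cells were paired within aliquots by total UMIs within 10%, without reuse. Counts were summed per set and given as CPM with exact Poisson intervals, ratios have exact conditional binomial intervals and shares exact Clopper-Pearson intervals, all at 95%. A gene was measured where the smaller set held or was expected to hold 10 UMIs or more, and called at 1.5-fold. A count of 0 was replaced by 3 counts over the group for a lower bound. Cells are not replicates, so no test was run and no p-value is given. Thinning drew 500 or 1000 UMIs per cell with a fixed seed. Thinning to 1000 left out 26 members and 920 0-UMI cells.

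Named genes were the rule genes, up to 6 measured genes with most UMIs of each list and any gene of the G2 and M, S phase and LT-HSC lists, the lineage markers, and the 15 highest and 15 lowest ratios described in the text; a few genes that meet this rule are not reported here. The members, lists and rules were chosen with earlier results of these data known. Alternatives were other rule and depth minimums, 10% mitochondrial UMIs, no pairing, thinning, cells with 1 to 3 rule UMIs as comparison, other scaling and weighting, no UMI minimum, single aliquots, and leaving out Scrublet-marked cells (expected rate 6%, run per aliquot, 25 marked), granulocyte-marker cells, shared barcodes or a gene's richest cell. Doublets were not removed otherwise. The ratio calculation was tested on simulated data. Promoter windows were RefSeq sequences (GRCm38.p6) and gene positions came from GENCODE vM21. Software was scanpy 1.11.5, pandas 2.3.3, scipy 1.17.1, numpy 2.4.6 and matplotlib 3.10.9 under Python 3.11.15.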

Additional observations from a re-analysis of the deposited data

Results flagged for a closer look

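Of the barcodes left out of the analysis, 25 held at least 4 rule UMIs, 4 in aliquot 1 and 21 in aliquot 2, and stood out because they would have met the rule on transcripts. All 25 had under 500 UMIs and none was left out for its mitochondrial share. They are 25 of 7407 left-out barcodes and enter no comparison above.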

How the results depend on the processing

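No paired analysis was possible because the libraries are technical aliquots of 1 pool and no test was run. The median log2 ratio of the G2 and M phase genes was 3.34 without depth matching, 3.32 with cells thinned to 1000 UMIs, 2.42 against cells with 1 to 3 rule UMIs, 2.92 without a UMI minimum and 2.61 to 2.82 in single aliquots, against 3.11 as reported. For S phase genes it was 1.35 without matching, 1.27 thinned and 0.17 to 0.56 in single aliquots. For the G1 list, 0.09 as reported, it was 0.35, 0.49, 0.21 against cells with 1 to 3 rule UMIs, 0.15 with median scaling and 0.14 to 0.20 in single aliquots. For quiescence genes it was -0.28 with at least 3 rule UMIs, -0.79 without matching, -1.13 thinned, -0.23 against cells with 1 to 3, -0.58 without granulocyte-marker cells and -0.61 to -0.47 in single aliquots. For LT-HSC genes it was -1.15 without matching, -0.98 thinned and -0.71 to -0.49 in single aliquots. Ribosome biogenesis genes turned from -0.16 to 0.33 without matching and 0.19 thinned, with -0.44 to -0.07 in single aliquots. The cause of these shifts was not tested.

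In single aliquots the median was -0.17 to 0.89 for erythroid, -0.18 to 0.50 for megakaryocyte and 1.18 to 4.26 for granulocyte genes, and the megakaryocyte median was -0.01 against cells with 1 to 3 rule UMIs. In aliquot 1 only 3 erythroid and 7 megakaryocyte genes were measured. Without a UMI minimum 2457 genes were higher and 2864 lower, and single aliquots gave 863 to 1500 and 971 to 1623, fewer genes being measured in aliquot 1. The share of members was 16.2% at 3 or more rule UMIs, 10.4% at 6 or more, 18.5% of cells with at least 1000 UMIs and 11.1 to 15.3% in single aliquots.

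Among single genes whose interval lay to 1 side of 1, the ratio changed side in 8 cases. Against cells with 1 to 3 rule UMIs the ratios were 1.02 for Kit, 0.910 for Plac8, 0.956 for Pf4, 0.309 for Mpo and 0.0940 for Elane. In single aliquots they were 0.887 to 3.18 for Blvrb and 0.288 to 2.32 for Pf4, aliquot 1 giving the lower value each time. Without the granulocyte-marker cells S100a9 was at 0.964. Without its richest cell Elane had 2 UMIs in depth-matched members and 0 in 0-UMI cells, too few for a ratio. Genes whose interval included 1 had no set side, and some crossed 1 too, such as Mcm2, at 0.821 as reported and 1.78 without depth matching, and Gata1, at 1.3 as reported and 0.833 in aliquot 1. A count of 1 to 3 UMIs in 0-UMI cells leaves most mitotic ratios without a precise size.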

Other observations

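Transcripts of translation and metabolism differed little beside the cell cycle genes. Of 20 ribosomal protein genes none passed 1.5-fold with the aliquots summed, but 19 had ratios below 1, with a median log2 ratio of -0.26. Their sum was 40200 CPM in members and 48760 CPM in 0-UMI cells. In each aliquot all 19 measured were below 1, and in aliquot 1, 3 were at least 1.5-fold lower, beside 20.3%. Rps14 was at 3365 and 3808 CPM in members of aliquots 1 and 2, against 4040 and 4936 CPM in 0-UMI cells (0.786, 0.747 to 0.827). Of 20 oxidative phosphorylation genes 5 were at least 1.5-fold higher, beside the 15.2% of all genes, and Ndufa4, of the respiratory chain, was at 1.88 (1.63 to 2.17). Of 18 glycolysis genes 5 were lower, beside 18.1%. Of 23 ribosome biogenesis genes 4 were lower, near the 18.1% of all genes, and Ncl, nucleolin, was at 0.895 (0.793 to 1.01). Myc, which drives growth genes, was at 193 and 163 CPM in members, against 437 and 290 CPM in 0-UMI cells (0.518, 0.414 to 0.646). Of 12 measured mitochondrially encoded genes 1 was at least 1.5-fold higher, beside 15.2%, and none lower.

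Some class II antigen presentation genes had lower ratios in members. H2-Eb1, a class II chain, had 19 UMIs in members and 62 in 0-UMI cells (0.295, 0.167 to 0.4996), and Cd74, the invariant chain, 31 and 79 (0.378, 0.241 to 0.579), although Cd74 was at 0.739 in aliquot 1, from 10 and 13 UMIs. Of 13 measured interferon response genes 5 were at least 1.5-fold lower, beside the 18.1% of all genes, and none higher, and in aliquot 1 it was 4 lower and 1 higher of 10. Nkg7, a granule protein of cytotoxic cells that progenitors also express, was at 104 and 107 CPM in members, against 20.6 and 62.3 CPM in 0-UMI cells (2.09, 1.39 to 3.19).

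Among the 15 lowest ratios were the lysosomal proteases Ctsf, with 3 UMIs in members and 28 in 0-UMI cells (0.103, 0.0201 to 0.334), and Ctsl, with 9 and 47 (0.184, 0.0794 to 0.3803). Tcp11l2 had 12 and 83 UMIs (0.139, 0.0691 to 0.256), Pecr, a peroxisomal reductase, 5 and 29, with 3 and 7 in aliquot 1, Fzd7, a Wnt receptor, 10 and 41, and Etv3, an ETS family repressor, 15 and 51. These 6 were lower in both aliquots.

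The genes with most UMIs in members and 0 in the paired 0-UMI cells included Neil3, a DNA glycosylase of replicating cells, with 96 UMIs in 62 members (at least 30.8-fold higher). Arhgap19, a GTPase-activating protein of cell division, had 79 in 59 members (at least 25.3-fold) and Espl1, separase, which cuts cohesin at anaphase, 61 in 48 members (at least 19.6-fold). These 3 were chosen after their values were seen. No explanation was tested for any value here.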
